A study of Mus musculus with 2 samples.

Results

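Plcb1 (gene 18795) and Plcb4 (gene 18798) are 2 neighbouring genes of mouse chromosome 2. Their cytosine methylation was read in the dentate gyrus, the part of the hippocampus that holds the granule neurons. The genes were taken as the mm9 windows chr2:134610000-135300000 for Plcb1 and chr2:135480000-135840000 for Plcb4, with sites of at most 100 reads. In replicate 2 these windows held 9843 and 5785 listed cytosines, of 27435342 listed in that library. They are 2 of the 49997 genes in the RefSeq table used for names (GRCm38.p6). The series has 1 group of 2 libraries, replicate 1 and replicate 2, both wild type (WT), from micro-dissected dentate gyri of male C57Black6 mice of 8 to 10 weeks, with no treatment named in the labels. How many animals gave each library is not stated there. The tissue holds neurons and other cells, so a level is an average over them, and a difference in cell mix and one in methylation per cell cannot be told apart. The locus was chosen by its CHG level in replicate 2, and its CHH and CpG levels come from that same library. Levels, steps and edges are therefore given as a description, with counting intervals and no test between regions. A test was run only on single cytosines, each against failed conversion.

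Both genes encode phosphoinositide-specific phospholipases C of the beta class. These enzymes are switched on by Gq-coupled receptors, such as group I metabotropic glutamate receptors and muscarinic receptors, and cut a membrane phosphoinositide into inositol trisphosphate, which releases calcium from stores, and diacylglycerol, which activates protein kinase C. Plcb1 is known as the main beta isoform of the forebrain, hippocampus included, and Plcb4 as one of the cerebellum, thalamus and retina. Methylation outside CpG (CpH, where H is A, C or T) is laid down by Dnmt3a in neurons after birth, and is found mostly at CA dinucleotides. CHG and CHH are its sequence contexts.

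The order of genes in the RefSeq table places Tmx4, a thioredoxin-related membrane protein, the gene model Gm14037 and the pseudogene Gm14038 before Plcb1. The lncRNAs Gm31993, 9630028H03Rik and Platr3 lie between Plcb1 and Plcb4. Lamp5, a lysosome-associated membrane protein, and Pak7, a p21-activated kinase, follow Plcb4. The RefSeq promoter entries of both genes are on the plus strand. The tables hold cytosines of the strand class named OT, the original top strand, which is then the coding strand of both genes. The other strand was not analysed here.

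Depth did not set the genes apart. The median depth of CpG and CHG sites was 23 reads in both windows, as over all autosomes, and that of CHH sites was 32 reads in Plcb1, 33 in Plcb4 and 32 over the autosomes. The deposited minimum was 20 reads for CpG and CHG and 30 reads for CHH. No site of either window had more than 100 reads, so the depth limit removed none there. As a measure of failed conversion, 0.368% of CpH reads of the mitochondrial genome were methylated in replicate 2. A level is the share of methylated reads among the summed reads of a region's sites. Its exact Clopper-Pearson interval at 95% covers counting error only, with all reads of a region pooled as if they shared 1 rate. Spread between sites and between animals is left out, so the interval is narrow for a regional level. The labels also name no molecular identifiers to tell PCR copies of 1 molecule apart.

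Plcb4 carried far more CpH methylation than Plcb1. In Plcb4 the CHG level was 2.17% (2.08% to 2.27%, 3722 sites) and in Plcb1 it was 0.953% (0.906% to 1.0%, 6550 sites), against 0.784% over the autosomes. The CHG level of Plcb4 was thus 2.77 times the autosomal level and 2.28 times that of Plcb1, while Plcb1 stood at 1.22 times the autosomal level. CHH sites, which are other cytosines of the same reads, gave 2.59% (2.43% to 2.75%, 1185 sites) in Plcb4 and 1.0% (0.930% to 1.07%, 2287 sites) in Plcb1, against 0.889% over the autosomes. The counting intervals of the genes did not overlap in either context, in the library by which the locus was chosen.

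As a ratio, CpG methylation differed by less. The CpG level was 83.9% (83.4% to 84.4%, 878 sites) in Plcb4 and 79.1% (78.6% to 79.6%, 1006 sites) in Plcb1, and the autosomal level was 79.0%. Plcb4 was thus at 1.06 times the level of Plcb1, against 2.28 times in CHG and 2.59 times in CHH. In percentage points the CpG difference was the largest, 4.83 against 1.22 in CHG and 1.59 in CHH. In Plcb4 74.9% of CpG sites were methylated in at least 80% of reads, against 68.2% in Plcb1 and 66.6% over the autosomes. Listed CpG sites were also denser in Plcb4, 2.44 per kb against 1.46 per kb in Plcb1, while listed CHG sites numbered 10.3 and 9.49 per kb. Over the 50 kb steps described further on, the CHG level and the number of listed CpG sites went together (Pearson r 0.64, Spearman's rho 0.53, 70 steps), and less so outside the run of high steps (0.39 and 0.38, 61 steps). The steps share a library, and the part of CpG density in the CHG level was not tested.

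**Figure D1:**
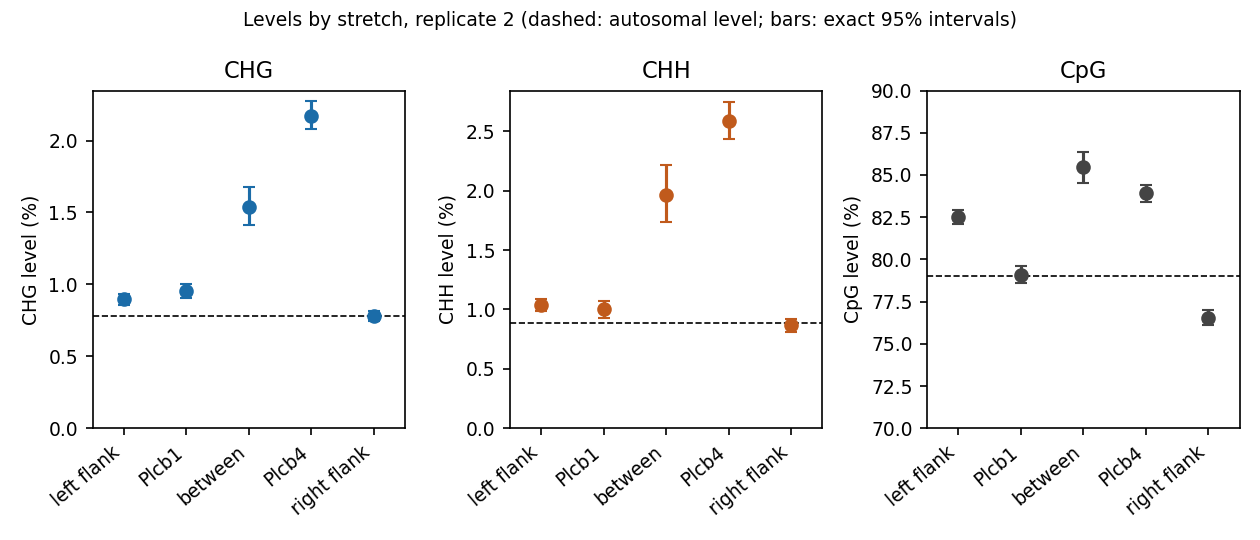
CHG, CHH and CpG levels (%) of replicate 2 in the left flank, Plcb1, the stretch between the genes, Plcb4 and the right flank. Points are read-weighted levels, bars exact 95% intervals and dashed lines the autosomal levels. The CpG axis starts at 70%. Plcb4 is highest in CHG (2.17%) and CHH (2.59%), followed by the stretch between, and Plcb1 lies close to its left flank in both.

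In CHG and CHH the sequence between the genes was intermediate, and Plcb1 was close to the DNA before it. In CpG neither held: the stretch between was above both genes, and the left flank was at 82.5% (82.1% to 82.9%), above Plcb1. Between the windows CHG was at 1.54% (1.41% to 1.67%), CHH at 1.96% (1.73% to 2.22%) and CpG at 85.5%. The left flank, the 1110 kb before Plcb1, had a CHG level of 0.897% (0.860% to 0.935%) and a CHH level of 1.04%, so that its CHG interval overlapped that of Plcb1. The right flank, the 1160 kb after Plcb4, was near the autosomal levels in CHG (0.779%) and CHH (0.865%), and its CpG level was 76.5%. Relative to the right flank, Plcb4 was 2.79 times as high in CHG and 2.99 times as high in CHH.

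The locus was then walked in 70 steps of 50 kb, the first starting at 133500001. A step was called high in CHG from 1.5 times the autosomal level, a limit that 9.13% of the autosomal steps with at least 100 CHG sites reached. In Plcb4, 6 of 7 steps were high, against 3 of 4 between the genes and 2 of 14 in Plcb1 (a step counts where its centre lies). The flanks had 2 of 22 high steps on the left and 1 of 23 on the right. For CHH, 15.4% of autosomal steps with at least 50 CHH sites reached 1.5 times the autosomal level. High CHH steps numbered 6 of 7 in Plcb4, 4 of 4 between the genes and 1 of 14 in Plcb1. They numbered 4 of 22 in the left flank and 2 of 23 in the right flank. Between the genes, the step from 135300001 had only 44 CHH sites, fewer than that minimum. Without its 3 most methylated sites it fell from 1.42% to 0.910% and was not high. Wherever 3 sites were removed from a step, the limit stayed that of all autosomal sites. Such a removal therefore leans toward a step not being high. The share of high CHG steps in Plcb1 was near the background share.

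**Figure D2:**
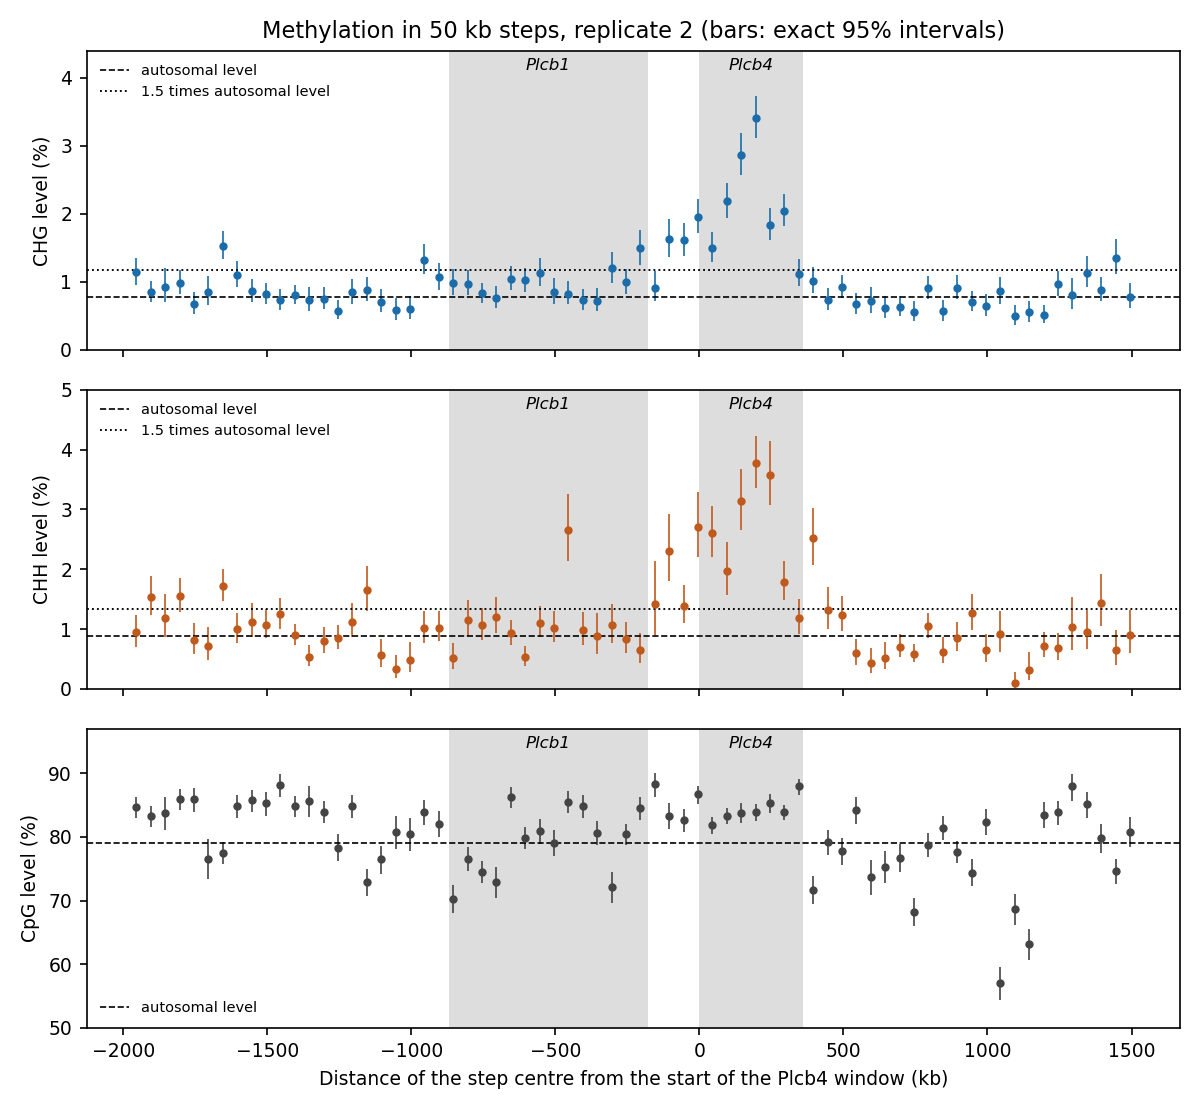
CHG, CHH and CpG levels (%) of replicate 2 in 50 kb steps, plotted by the distance of the step centre from the start of the Plcb4 window (kb), with exact 95% intervals as bars. Grey bands are the gene windows, dashed lines the autosomal level and dotted lines 1.5 times that level. CHG and CHH rise before Plcb4 and peak inside it at 3.42% and 3.77%, while CpG stays between 81.8% and 87.9% across Plcb4.

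The 3 highest steps in CHG all lay in Plcb4. The step from 135650001 had a CHG level of 3.42% (3.12% to 3.74%), that from 135600001 had 2.87% (2.57% to 3.19%) and that from 135550001 had 2.19% (1.94% to 2.46%). The 3 lowest steps lay in the right flank, from 136550001 (0.497%), from 136650001 (0.515%) and from 136600001 (0.555%). Of these, the steps from 136550001 and 136600001 were the lowest in CHH too, at 0.0985% and 0.323%, and were among the 4 lowest in CpG, at 68.6% and 63.1%. The step from 136650001 had a CpG level of 83.5%.

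By the 50 kb rule, which joins high steps across 1 step that is not high, the block of high CHG ran from 135150001 to 135800000. It held 11 high steps of 13 and reached into the last part of Plcb1. That left edge rested on isolated steps. The step from 135150001 had a CHG level of 1.20%, just past the limit of 1.18%, and without its 3 most methylated sites it was at 0.972%. The step after it, from 135200001 (0.994%), and the first step past Plcb1 (0.916%) were not high, and the step from 135250001, the last of Plcb1, was at 1.49% in CHG and 0.647% in CHH. Without joining, an alternative chosen after the data were seen, the block was the 9 steps from 135350001 to 135800000, and a fit of 3 segments with free edges on a 5 kb grid placed it at 135435001 to 135795000. The free edges gave CHG levels of 0.938% before, 2.28% inside and 0.794% after the block. The block thus began 330 kb, 130 kb or 45.0 kb before the Plcb4 window, and in each of these 3 forms it ended 40 to 45 kb before the end of that window.

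On the right, CHG and CHH did not fall at the same place. The step from 135750001 had a CHG level of 2.04%, that from 135800001, which holds the end of the Plcb4 window, 1.12%, and that from 135850001 1.01%. The CHH level in those steps was 1.78%, 1.19% and 2.52%, so that CHH was high again past the gene, where CpG dropped from 87.9% to 71.7%. Free edges fitted to CHH sites gave 135440001 to 135890000, 5 kb from the CHG fit on the left and past it on the right. With steps of 25 kb the CHG block ended at 135850000, and with at least 30 reads or a lower limit for a high step at 135900000, both past the Plcb4 window, so the right edge of CHG moved with these settings from before to after the window end. The step from 134600001, which holds the start of the Plcb1 window, had 0.987% CHG and 0.513% CHH and was not high in either. Across the 70 steps CHG and CHH levels went together (Pearson r 0.76, Spearman's rho 0.61), as a description over steps that share a library and its reads. Over the 61 steps outside the 9-step run these were 0.33 and 0.43. CHG and mean CHG depth were hardly related (Pearson r -0.03 over 70 steps).

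Against the rest of the genome, the run of high CHG at Plcb4 was not the longest, but it had the highest CHG level among runs of 9 or more steps. Among 47294 autosomal steps of 50 kb, with a median CHG level of 0.729%, only 7 exceeded the step from 135650001. The step from 135600001 ranked 20 and that from 135550001 ranked 119. By the same limit without joining, the autosomes held 2604 runs of high steps, of which 1821 were single steps. Only 17 were longer than the 9 steps here, the longest having 20, and 11 runs, this one included, had 9. Among those 28 runs of 9 or more steps this one ranked 1 in CHG level, with 2.15% against a median of 1.62%, and 2 in CHH level, with 2.62% against 2.06%. It also ranked 2 in listed CpG sites, with 108 per step against a median of 78.8, and 5 in CpG level, with 83.7% against 82.4%. The ranks describe replicate 2, by which the locus was chosen.

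**Figure D3:**
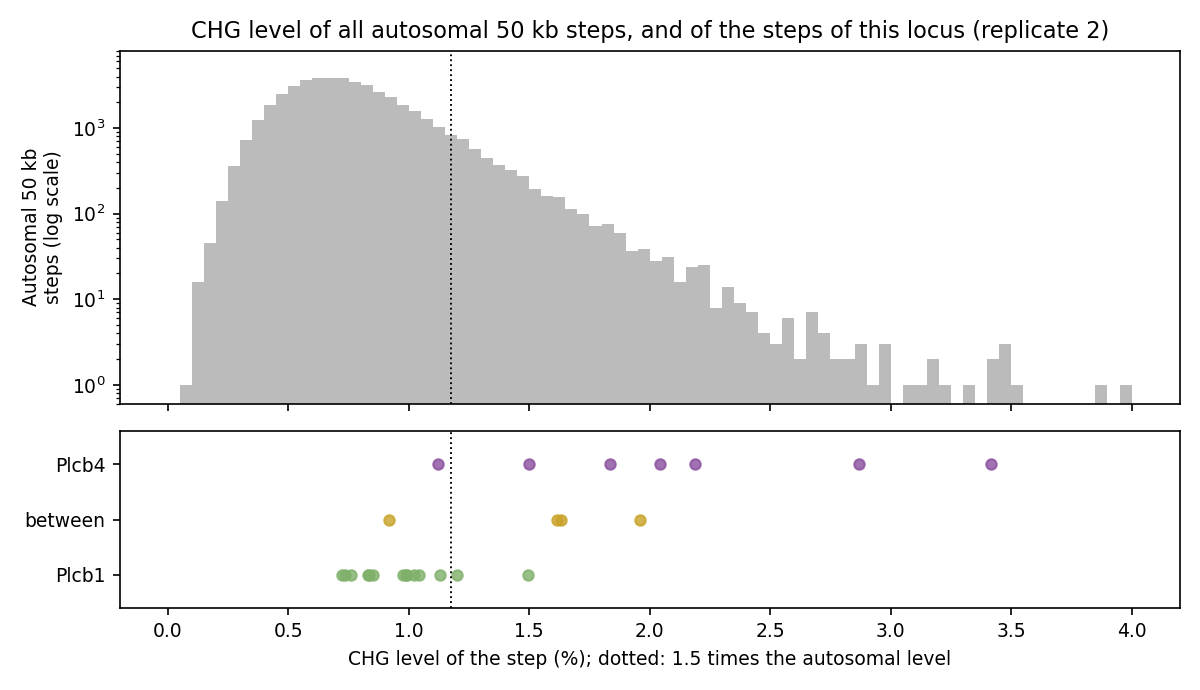
Top, number of autosomal 50 kb steps (log scale) by CHG level (%) in replicate 2, for steps of at least 100 CHG sites. Bottom, the steps of Plcb1, of the stretch between and of Plcb4 on the same axis, 1 point per step, with the limit of 1.5 times the autosomal level dotted. The Plcb1 steps lie between 0.722% and 1.49%, in the bulk and upper shoulder of the distribution, and those of Plcb4 between 1.12% and 3.42%.

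The contexts were then split by the cytosines listed next to each site, because no mm9 sequence was used. A listed cytosine at the next position means that H is C (CCG within CHG, CC within CHH). A CHH site with a listed cytosine 2 positions on, and none at the next, is read as CHC, which includes CAC. Sites with no listed neighbour are mixed, since a neighbouring cytosine below the depth minimum is not listed. The reading direction was tested on the tables: of 214094 CpG sites of chromosome 2, 0 had a listed cytosine at the next position, and of 1366305 CHG sites 0 had one 2 positions on.

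In Plcb4 the classes with no listed cytosine next were raised, and CHH sites followed by a listed cytosine, which are CC, were not. CHH sites of the CHC class were methylated in 6.53% of reads (5.95% to 7.15%, 198 sites) in Plcb4, in 2.69% (2.42% to 2.99%, 379 sites) in Plcb1 and in 2.06% over the autosomes. CHH sites with neither neighbour were at 2.38% in Plcb4, 0.789% in Plcb1 and 0.767% over the autosomes. CHH sites followed by a listed cytosine were at 0.325% (0.221% to 0.461%, 282 sites) in Plcb4, 0.321% in Plcb1 and 0.355% over the autosomes. This class is close to the mitochondrial background and was not raised in Plcb4, where the other CHH classes were 3.17 and 3.09 times the autosomal level. CHG sites were split only by the next position. Those with no listed cytosine next were at 2.27% in Plcb4, 0.970% in Plcb1 and 0.795% over the autosomes, while those followed by a listed cytosine were at 0.549% (0.365% to 0.793%, 210 sites), 0.388% and 0.432%.

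The stretch between the genes also had its highest level in the CHC class, 5.43% (4.5% to 6.47%, 64 sites). Its CHH sites followed by a listed cytosine were at 0.793% (0.503% to 1.19%, 89 sites), above the autosomal 0.355%, while its CHG sites followed by a listed cytosine had 1 of 1052 reads methylated (0.0951%). Plcb1 and its left flank were alike in the CHC class, 2.69% and 2.75%, and the right flank was at 2.15%.

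**Figure D4:**
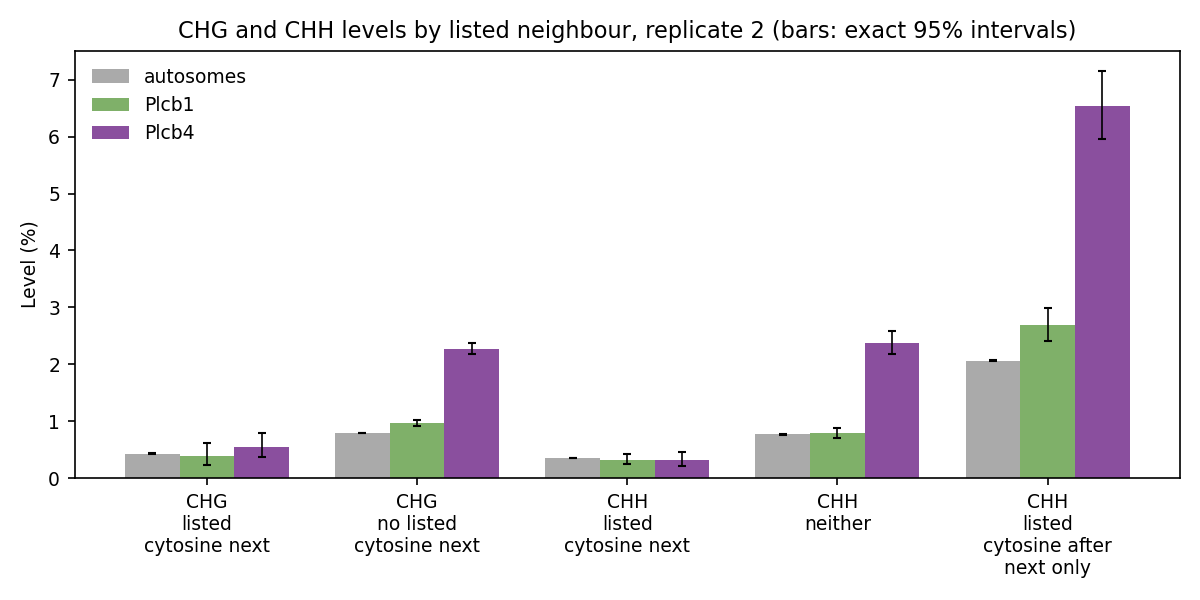
Levels (%) of CHG and CHH sites of replicate 2 by listed neighbour, over the autosomes, in Plcb1 and in Plcb4. Bars are read-weighted levels and lines exact 95% intervals. Plcb4 stands out where the next cytosine is not listed, up to 6.53% in CHH sites with a listed cytosine after next, and not in CHH sites with a listed cytosine next (0.325%).

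Along each gene the profiles differed in shape. In Plcb4, from its start, CHG was at 1.74% in segment 1 of 10 equal segments, at 3.36% (3.01% to 3.73%, 411 sites) in segment 6 and at 1.14% in segment 10. CHH in Plcb4 was at 1.40% in segment 1, between 2.0% and 3.70% in segments 2 to 8, at 1.45% in segment 9 and at 1.24% in segment 10. At a finer scale, the highest 10 kb steps with at least 50 CHG sites were those from 135690001 (4.58%, 3.8% to 5.47%) and from 135670001 (4.19%), both in Plcb4. Plcb1 had no such arch. Its CHG level lay between 0.747% and 1.15% in segments 1 to 9 and was 1.38% in segment 10, nearest to Plcb4. CHH in Plcb1 was lowest in segment 1, 0.344% (0.200% to 0.550%, 154 sites), which is at the mitochondrial background, and highest in segment 7, 1.71% (1.41% to 2.06%).

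**Figure D5:**
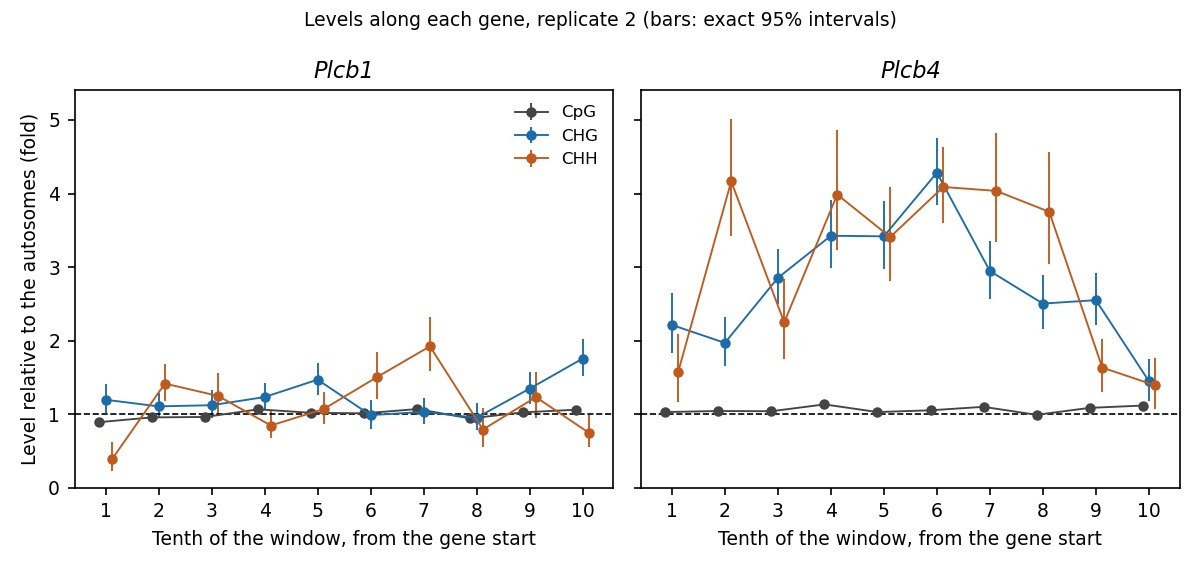
CpG, CHG and CHH levels of replicate 2 in 10 equal segments of each gene window from the gene start, as a fold of the autosomal level, with exact 95% intervals as bars. In Plcb4 CHG peaks at 4.28 times the autosomal level in segment 6 and falls to 1.45 times in segment 10. In Plcb1 CHG stays between 0.953 and 1.76 times, and CpG stays near 1 in both genes.

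The start of the Plcb1 window was low in CpG methylation as well. Its segment 1 had a CpG level of 70.5% (68.7% to 72.3%), the lowest of its segments, and the 10 CpG sites listed in its first 10 kb averaged 25.3%. A run of 6 CpG sites from 134612915 to 134613736, each methylated in at most 20% of reads, was at 3.45% together. Promoters of active CpG-rich genes are commonly unmethylated. The window start stands here for the gene start, and mm9 gene starts were not checked. The RefSeq promoters, 1 for Plcb1 and 2 for Plcb4, were not placed in mm9. Which of these sites lie in a promoter is therefore not known. In Plcb4 the 12 CpG sites of the first 10 kb of the window averaged 75.4%, with single sites from 0% to 100%. Its 1 such run, 5 sites from 135509498 to 135509856, was at 14.8%. The remaining 4 runs of this kind in the 70 steps were in the right flank, the nearest at 135884120 to 135884453 (7 sites, 3.29%), inside the step where CHH was high and CpG low.

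Methylated reads fell on many cytosines in both genes, but a small share of all listed sites held much of the total. Most listed sites had no methylated read. In Plcb4, 50% of the methylated reads sat on 4.06% of CHG sites and 3.29% of CHH sites. For Plcb1 these shares were 3.47% and 3.24%, and over the autosomes 2.80% and 2.80%. In Plcb4 19.6% of CHG and 23.4% of CHH sites had at least 1 methylated read, against 12.5% and 14.6% in Plcb1 and 10.3% and 13.3% over the autosomes. Failed conversion alone also gives sites with 1 methylated read. Whether 1 site had more methylated reads than failed conversion gives was tested with the exact binomial test, one-sided, against the mitochondrial rate, with Benjamini-Hochberg adjustment at 0.01 over all nuclear sites of the context. The test called 231 of 3722 CHG sites (6.21%) in Plcb4 and 118 of 6550 (1.80%) in Plcb1, beside 1.46% over the autosomes. Of CHH sites it called 100 of 1185 (8.44%) in Plcb4 and 73 of 2287 (3.19%) in Plcb1, beside 2.75% over the autosomes. For CpH together this was 331 sites (6.75%) in Plcb4 and 191 (2.16%) in Plcb1, beside 1.79%. The shares in Plcb1 were near the autosomal ones.

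Called cytosines were partly methylated. Their median CHG level was 18.2% in Plcb4 and 16.7% in Plcb1, and 16.7% over the autosomes. At a depth of 23 reads the fewest methylated reads called in a CHG site were 3, a level of 13.0%. Plcb4 differed in its upper end: 44 called CHG sites were methylated in at least 30% of reads and 9 in at least 50%, against 12 and 0 in Plcb1. The 30% limit was thus reached by 1.18% of CHG sites in Plcb4, 0.183% in Plcb1 and 0.117% over the autosomes. For CHH these numbers were 19 and 9 in Plcb4 and 3 and 1 in Plcb1, and the 30% limit was reached by 1.60%, 0.131% and 0.202% of CHH sites in Plcb4, in Plcb1 and over the autosomes. With all sites of 30% or more removed, in the genes and over the autosomes, Plcb4 was still 2.31 times the autosomal CHG level and 2.17 times the CHH level, and Plcb1 was 1.21 and 1.17 times.

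Some single CpH cytosines in Plcb4 were methylated in most reads. Of the sites of at least 30 reads, the highest CHH cytosines were at 135547546, with 29 of 34 reads methylated (85.3%, 68.9% to 95%), at 135624593, with 28 of 34 (82.4%), and at 135741499, with 26 of 36 (72.2%). The first 2 had a listed cytosine after next, the CHC class. The highest CHG cytosines of Plcb4 of that depth were at 135672543, with 19 of 37 reads (51.4%, 34.4% to 68.1%), and at 135601452, with 13 of 30 (43.3%). The next was at 135614423, with 13 of 31 (41.9%). None of the 3 had a listed cytosine next.

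In Plcb1 the highest CHH cytosine of that depth, at 135025370, was methylated in 18 of 36 reads (50%, 32.9% to 67.1%). The next in level were at 135175745 (14 of 32 reads, 43.8%) and at 135219611 (9 of 30, 30%), both of the CHC class. The cytosine at 135025370 stood 4 bases after a CpG at 135025366 that was methylated in 35 of 35 reads, whereas the CHH cytosine at 135025368, between them, had 0 of 35. A CHG cytosine at 135025363 in the same reads' span was at 16.7%, 6 of 36. It was among the 3 highest CHG sites of Plcb1 with at least 30 reads. The others were at 134891574 (8 of 34, 23.5%) and 135182761 (6 of 35, 17.1%). At lower depths, called CHG sites reached 48.3% in Plcb1 and 86.4% in Plcb4. The cytosine at 135025370 lies in the only Plcb1 step that was high in CHH, from 135000001 (2.66%, 103 sites), where the 3 most methylated sites held 34.8% of the methylated reads. Without them the step was at 1.79%, still above the limit. Its CHG level was 0.830%.

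Replicate 1, which did not enter the choice of the locus, listed few cytosines here. Plcb4 had 3 CHG sites with 8 of 71 reads methylated (11.3%, 4.99% to 21%) and 7 CHH sites with 5 of 152 (3.29%, 1.08% to 7.51%). The methylated reads all fell on the 3 cytosines at 135555975 (4 of 24), 135555990 (5 of 25) and 135555995 (4 of 22), close enough to share reads, and replicate 2 did not list them. Plcb1 had 7 CHG sites with 0 of 145 reads methylated, which allows a level of up to 2.07% by the limit of 3 counts and 2.51% by the exact interval, and 17 CHH sites with 5 of 363 (1.38%, 0.449% to 3.18%). The stretch between had 0 of 20 CHG reads at 1 site and 0 of 102 CHH reads at 5 sites, where the exact upper bounds were 16.8% and 3.55%. The levels of replicate 1 over the autosomes were 0.876% for CHG and 1.28% for CHH. No CpG site was listed in either gene. With so few reads, from a handful of places, replicate 1 cannot repeat the comparison of the genes, and whether the block varies between animals was not tested.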

How the data were processed

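Whole-genome bisulfite sequencing turns unmethylated cytosine into uracil and leaves methylcytosine and hydroxymethylcytosine, which it cannot separate. Bismark 0.7.5 and the mm9 build are named per the submitters' processing notes. Trimming and removal of duplicate reads: not given in the sources used here. For each cytosine the authors deposited 3 counts (methylated, unmethylated and all reads) and a percent of methylated reads, in 1 table per library and context. The lowest total was 20 reads, and 30 reads for CHH in replicate 2. Replicate 2 held 77868153 CpG, 451032782 CHG and 262299782 CHH read calls, and replicate 1 listed 172020 cytosines in all.

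Levels, steps and edges were computed with Python 3.11.15, numpy 2.4.6, pandas 2.3.3 and scipy 1.17.1. The edge and site-call scripts were tested on simulated data. The simulated block was uniform and lay exactly on the 50 kb grid, and both step edges were exact in 20 of 20 draws. Such a block cannot show how well edges are placed in uneven data. Site calls cover counting error within replicate 2 only. Windows, members and lists were chosen with earlier results of these data known. Named steps were the 3 highest and 3 lowest by CHG level with at least 100 sites and those at window edges. Named cytosines were the 3 highest called ones of at least 30 reads per gene and context. The 10 kb steps, the removal of high sites, the runs of 9 or more steps and the sites beside 135025370 were added after the data were seen. Pathway genes were not analysed, because no mm9 gene positions were used.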

Additional observations from a re-analysis of the deposited data

How the results depend on the processing

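The alternatives were listed at the outset, except the edges without joining and those fitted to CHH. Levels from all depths, from sites of up to 50 reads, from averaged site percents and, for CHG and CHH, with the neighbour classes weighted as over the autosomes lay within the counting intervals of the values above. With at least 30 reads the CHG level was 0.833% in Plcb1 (1.06 times the autosomal level) and 2.48% in Plcb4 (3.16 times), and the CpG level of Plcb1 was 80.5%. With at least 40 reads, where 33 and 19 CHG sites were left, CHG was 0.436% in Plcb1, below the autosomal 0.682%, and 3.72% in Plcb4, CHH was 0.626% and 4.07%, and CpG was 94.6% (3 sites) and 95.1% (1 site). Less the mitochondrial level, CHG was 0.586% and 1.81% and CHH 0.633% and 2.22%. Relative to the autosomes less the same level, this was 1.41 times in Plcb1 and 4.34 times in Plcb4 for CHG. For CHH it was 1.21 and 4.26 times. Replicate 1 alone gave 0% and 11.3% for CHG and 1.38% and 3.29% for CHH. The left edge of the block was 135350001 with 25 kb steps, with at least 30 reads or without joining, 135250001 with the limit for a high step raised from 1.18% to 1.37% CHG, 135435001 by the free-edge fit, 135300001 by CHH steps and 135440001 by the CHH fit. The right edge was 135850000 with 25 kb steps, 135900000 with the limit lowered to 0.980%, with at least 30 reads or by CHH steps, and 135890000 by the CHH fit. With a background rate of 1%, 85 of 8837 CpH sites in Plcb1 and 183 of 4907 in Plcb4 were called, 1.21 and 4.68 times the autosomal share of 0.797%. With at least 30 reads these were 90 of 3025 and 131 of 1562, 1.16 and 3.26 times the autosomal 2.57%. The latter count fewer sites by construction. A higher background rate can only lower the number of calls. Subtracting the mitochondrial level can only lower a level, and it raises a ratio to the autosomes that is above 1. The cause of the other changes was not tested. Of 68 alternative values, 36 stayed within the counting interval (levels), 1 step of 50 kb (edges) or 1.5 times (counts) of the value above, among them a left edge of 135200001 with 100 kb steps and 208 and 352 called sites at a threshold of 0.05. No paired analysis was possible because all libraries are of 1 group. At the median depth, a CHG site with fewer than 3 methylated reads of 23 was not called, so lower levels at single cytosines were not detectable.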
